A study of Homo sapiens with 8 samples.

Results

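The genes described are 34 genes of glycolysis and of the response to low oxygen, chosen by name among the 58735 genes of the deposited table. They fall into 17 glycolytic enzymes, 5 genes of glucose transport and of the control of glycolysis, the transcription factor subunit HIF1A, and 11 targets of hypoxia-inducible factor (HIF) that lie outside glycolysis. All 34 were found in the table. They were measured by poly(A) RNA sequencing in PC3, an established human prostate cancer cell line, in 4 libraries labelled siPRMT7 (genotype label PRMT7 knockdown) and 4 labelled siCtrl (genotype label WT). Per the labels, every culture was transfected by lipofection and kept for a further 48 h, and no culture is labelled as hypoxic. Titles are written with si but library names with sh, and the labels do not say whether replicates came from separate cultures, so p-values measure only the spread between these libraries. The series concerns the arginine methyltransferase PRMT7 in prostate cancer, and the comparison asks which of these transcripts differed in the libraries labelled siPRMT7.

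Glycolysis splits glucose into pyruvate and yields ATP without oxygen, and many tumour cells run it at a high rate and reduce the pyruvate to lactate. HIF is a pair of subunits, of which the alpha subunit, such as HIF1A, is hydroxylated by the EGLN enzymes and destroyed while oxygen is plentiful. In low oxygen it accumulates and binds short hypoxia response elements, with the core letters ACGTG or GCGTG, near genes for glucose uptake, glycolysis, blood vessel growth, pH control and mitophagy.

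Each library held 14526030 to 15724862 fragments, rebuilt from the deposited FPKM (fragments scaled to gene length and library size). Counts of 2 libraries were compared by a chi-square divided by the number of genes, about 1 under sampling noise alone, which was 3.03 to 22.6 among siPRMT7 libraries and 2.20 to 3.98 among siCtrl libraries, and the 3 highest values all involved siPRMT7 replicate 2. PRMT7 itself, the targeted gene, had 4.62, 4.31, 5.01 and 4.82 FPKM in siPRMT7 libraries, against 5.24, 4.86, 5.10 and 5.25 FPKM in siCtrl libraries. The siPRMT7 mean differed from the siCtrl mean by -8.29%, and a two-sided exact permutation test gave p = 0.0571, where the smallest possible value is 0.0286. The PC3 line expresses epithelial keratins and mesenchymal genes: KRT8, KRT18, EPCAM, VIM, CD44 and PLAU all lay above 6.87 FPKM or at it in every library. KLK3, the prostate-specific antigen that this line is known to lack, was at 0 in every library. Of markers of other cell types, CD3E was at 0, PTPRC and LYZ stayed under 0.262 FPKM or at it, PECAM1 had 2.83 to 3.64 FPKM and COL1A1 had 6.13 to 7.53 FPKM.

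The 34 genes differed widely in level, from a mean of 0.016 FPKM for EGLN3 upward. ENO1, the enolase of most tissues, stood highest with a mean of 716 FPKM over the 8 libraries, and GAPDH, PKM, LDHA, PGK1, TPI1 and PGAM1 followed with 652, 542, 405, 336, 259 and 208 FPKM. These 7 enzymes act from the triose phosphates onward, as far as lactate, and no other gene of the 34 reached their counted level. The counted levels of ALDOA and LDHB are uncertain because of shared exonic bases, as described below. Outside glycolysis P4HA1, a collagen prolyl hydroxylase subunit, and NDRG1, a stress-responsive cytosolic protein, stood highest, with 177 and 158 FPKM. HIF1A had 124 FPKM. SLC2A3, a glucose transporter of neurons, and EGLN3, an oxygen-sensing prolyl hydroxylase, had 0 to 10 and 0 to 5 fragments in a library and were left out of the test. Both were also at 0 in at least 1 library of each group, so no fold is given for them. A test was possible for 32 genes, those with at least 1 FPKM in at least 4 of the 8 libraries.

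**Figure D1:**
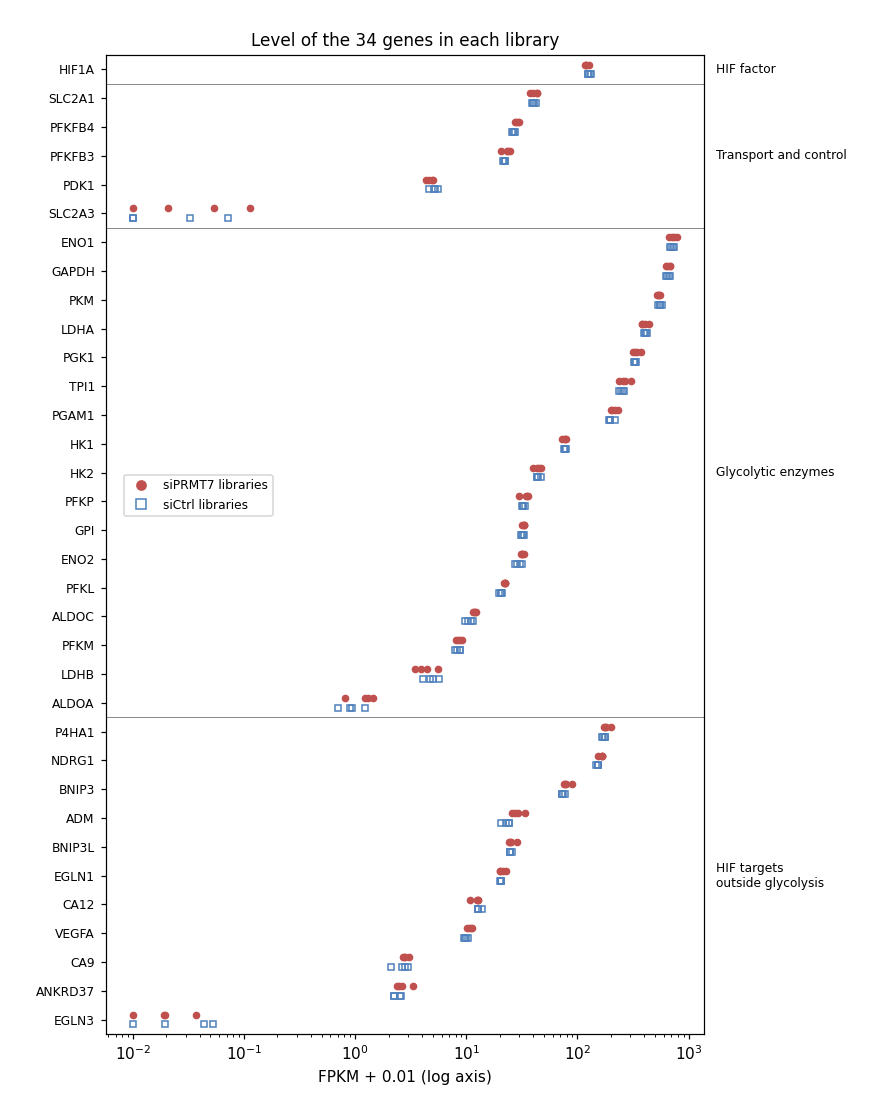
FPKM of the 34 genes in each library, on a log axis with 0.01 added, with siPRMT7 libraries as filled circles above siCtrl libraries as open squares. ENO1 leads at 672 to 783 FPKM, and SLC2A3 and EGLN3 stand at the low end, at 0.104 FPKM or less.

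None of the 32 tested genes passed an adjusted p of 0.05 in limma over all 13436 genes tested, where 2 genes (0.0149%) were called higher and 0% lower in siPRMT7, and with voom on rebuilt fragments also 0 of the 32 were called. At an unadjusted p under 0.05 there were 5 of the 32, or 15.6%, all higher in siPRMT7: ADM, NDRG1, PFKL, ALDOC and ENO2. Over all genes tested 7.67% were higher and 5.49% lower at that level. Of all 32, 24 had a log2 fold change above 0, or 75.0%, against 49.5% of all genes tested, with a median of 0.047 against -0.0015, all on the log2(FPKM + 1) scale. On the TPM scale, which lowered the median of all genes tested to -0.035, 18 of 32 were above 0 and the median of the 32 was 0.0070. After quantile normalization 17 of 32 were above 0, with a median of 0.012 against -0.0057 over all genes tested. These counts describe the list and were not tested as a set. The 95% interval of the log2 fold change lay within a 1.5-fold change in either direction for all 32 genes and within a 1.2-fold change for 26. Of all 13436 genes tested, 12217 and 6804 lay within these bounds. The median coefficient of variation was 6.58% in siPRMT7 and 3.47% in siCtrl libraries. Over all genes tested, whatever their level, it was 9.96% and 6.45%. The libraries are bulk RNA, in which fewer expressing cells and less RNA per cell cannot be told apart.

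**Figure D2:**
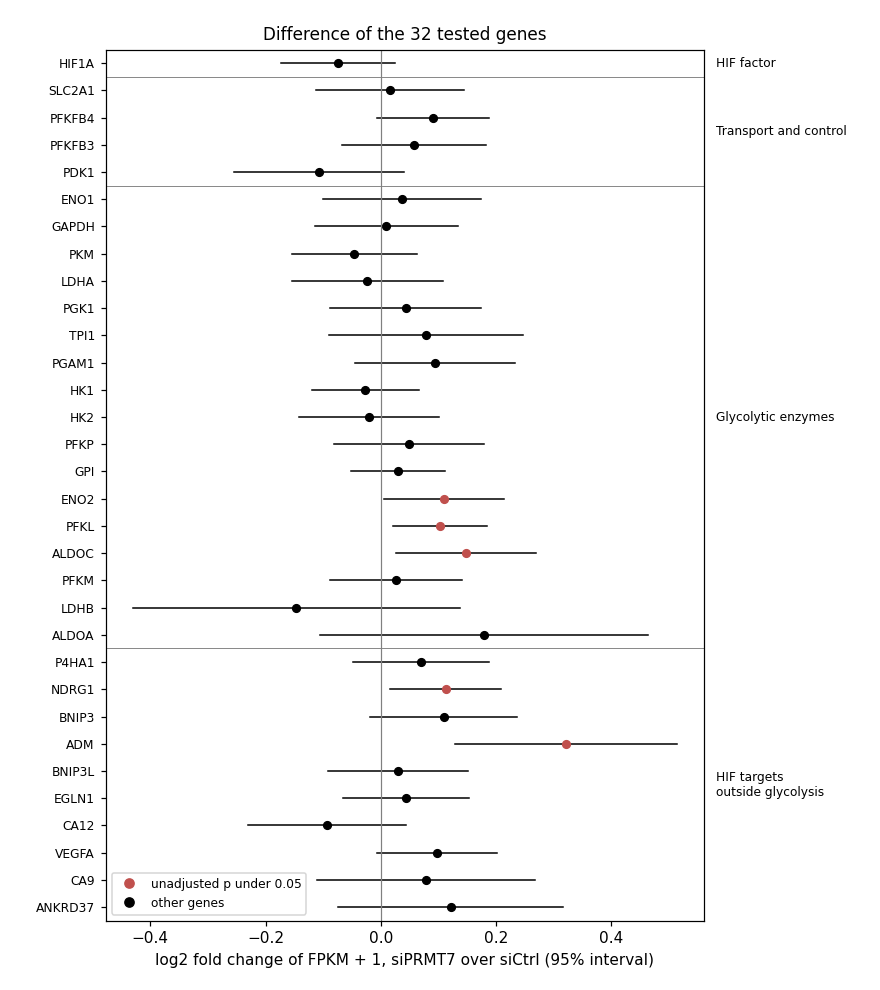
The log2 fold change of FPKM + 1, siPRMT7 over siCtrl, with its 95% interval from limma, for the 32 tested genes by class. Red points mark the 5 genes with an unadjusted p under 0.05, and ADM lies farthest right at 0.32.

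HIF1A encodes the oxygen-regulated alpha subunit of HIF. HIF1A (ENSG00000100644, chromosome 14, 61695513 to 61748259, plus strand, GRCh38) had 127, 119, 119 and 117 FPKM in siPRMT7 libraries, against 124, 129, 124 and 132 FPKM in siCtrl libraries. In 3 of the 4 siPRMT7 libraries it lay below every siCtrl library, and siPRMT7 replicate 1 lay among them. The means were 121 ± 4.56 FPKM in siPRMT7 and 127 ± 3.78 FPKM in siCtrl (SD, n = 4 each), a log2 fold change of -0.07 with an interval from -0.17 to 0.02 (limma adjusted p = 0.474). The difference in means, -5.04% of the siCtrl mean, did not pass the test. Oxygen acts mainly on the stability of the HIF1A protein, which was not measured.

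Glucose transport and the control of glycolysis gave no passing difference either. SLC2A1, the glucose transporter GLUT1, had 40.2, 37.3, 43.2 and 43.4 FPKM in siPRMT7 libraries, against 39.9, 38.8, 42.5 and 40.9 FPKM in siCtrl libraries. The groups overlapped, and the log2 fold change was 0.016 with an interval from -0.11 to 0.14. On the TPM scale it was -0.024, against a median of -0.035 over all genes tested. PFKFB4 and PFKFB3 make and break down the fructose bisphosphate that activates phosphofructokinase. PFKFB4 had 27.2, 29.9, 27.9 and 29.1 FPKM in siPRMT7 libraries, against 26.2, 26.9, 27.6 and 26.0 FPKM in siCtrl libraries. It lay above every siCtrl library in 3 of 4 siPRMT7 libraries, with a log2 fold change of 0.09 (limma adjusted p = 0.395). PFKFB3 averaged 23.0 ± 1.73 FPKM in siPRMT7 and 22.0 ± 0.460 FPKM in siCtrl libraries (SD, n = 4 each). PDK1, the kinase that shuts pyruvate out of mitochondrial oxidation, had 5.06, 4.59, 4.30 and 4.92 FPKM in siPRMT7 libraries, against 5.25, 5.61, 4.65 and 5.13 FPKM in siCtrl libraries. It was the lowest of this class in fold change, at -0.11 on the log2 scale (limma adjusted p = 0.491), and its groups overlapped.

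The 17 glycolytic enzymes stayed close to their siCtrl level. Of them 12 had a log2 fold change above 0 and 5 below, with a median of 0.037. On the TPM scale their median was -0.0040, against -0.035 over all genes tested, and after quantile normalization it was -0.015, against -0.0057, with 8 of 17 above 0 in each case. The enzymes together took 1.78 ± 0.0600% of all fragments in siPRMT7 and 1.78 ± 0.0304% in siCtrl libraries (SD, n = 4 each). Of the 17 enzymes 3, or 17.6%, had an unadjusted p under 0.05, all higher in siPRMT7: PFKL, ALDOC and ENO2. Over all genes tested 7.67% were higher at that level.

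PFKL, the liver-type phosphofructokinase that catalyses the committing step of glycolysis, had 22.1, 21.6, 22.5 and 22.1 FPKM in siPRMT7 libraries, against 19.8, 20.7, 20.9 and 20.5 FPKM in siCtrl libraries. Every siPRMT7 value exceeded every siCtrl value, with a log2 fold change of 0.10 (SE 0.0362, unadjusted p = 0.0192 and adjusted p = 0.294 in limma). ALDOC, the brain-type aldolase, had 11.7, 11.6, 12.1 and 11.97 FPKM in siPRMT7 libraries, against 11.5, 10.9, 10.3 and 9.70 FPKM in siCtrl libraries. Its groups did not overlap either, although siPRMT7 replicate 2 and siCtrl replicate 1 lay within 0.1 FPKM of each other, and its log2 fold change was 0.15 (SE 0.0539, limma adjusted p = 0.310). ENO2, the neuronal enolase, had 31.9, 31.1, 31.8 and 32.7 FPKM in siPRMT7 libraries, against 31.4, 30.2, 28.7 and 27.7 FPKM in siCtrl libraries. In 3 of 4 siPRMT7 libraries it lay above every siCtrl library, with a log2 fold change of 0.11 (SE 0.0464, limma adjusted p = 0.364). Groups without overlap in this direction made up 4.14% of all genes tested and 4.43% in the other direction, against 4 of the 32 genes here, all higher.

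In the abundant enzymes the groups overlapped. GAPDH, the glyceraldehyde phosphate dehydrogenase often used as a loading control, had 627, 673, 684 and 635 FPKM in siPRMT7 libraries, against 621, 636, 664 and 679 FPKM in siCtrl libraries. Its log2 fold change of 0.0098 (interval -0.11 to 0.13) was -0.031 on the TPM scale, against a median of -0.035 over all genes tested. ENO1 averaged 726 ± 46.9 FPKM in siPRMT7 and 707 ± 24.9 FPKM in siCtrl libraries (SD, n = 4 each). PKM, the pyruvate kinase of proliferating cells, averaged 534 ± 13.1 FPKM in siPRMT7 and 551 ± 19.5 FPKM in siCtrl libraries. TPI1, triosephosphate isomerase, reached 302 FPKM in siPRMT7 replicate 2, whereas its other 3 siPRMT7 libraries had 237 to 269 FPKM and its siCtrl libraries 237 to 263 FPKM. PGK1, phosphoglycerate kinase, likewise had 375 FPKM in siPRMT7 replicate 2, above its other 3 siPRMT7 libraries at 316 to 344 FPKM and its siCtrl libraries at 324 to 339 FPKM. PGAM1, phosphoglycerate mutase, averaged 215 ± 14.7 FPKM in siPRMT7 and 201 ± 10.9 FPKM in siCtrl libraries (SD, n = 4 each). GPI, glucose phosphate isomerase, averaged 32.8 ± 0.604 FPKM in siPRMT7 and 32.1 ± 0.774 FPKM in siCtrl libraries (SD, n = 4 each).

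Isozyme shares overlapped between groups. FPKM is per length, so levels can be set against each other within a family. Hexokinases trap glucose in the cell, and HK1 took 63.6 ± 0.696% of the summed HK1 and HK2 level in siPRMT7 and 63.7 ± 0.817% in siCtrl libraries (SD, n = 4 each). Of the phosphofructokinases the platelet type PFKP took 52.5 ± 1.64%, PFKL 34.2 ± 1.18% and the muscle type PFKM 13.3 ± 0.669% in siPRMT7, against 53.1 ± 0.318%, 33.3 ± 0.771% and 13.6 ± 0.460% in siCtrl. Of the enolases ENO2 took 4.22 ± 0.315% in siPRMT7 and 4.01 ± 0.335% in siCtrl libraries, the rest being ENO1. In each family examined the groups overlapped in the share of every isozyme.

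**Figure D3:**
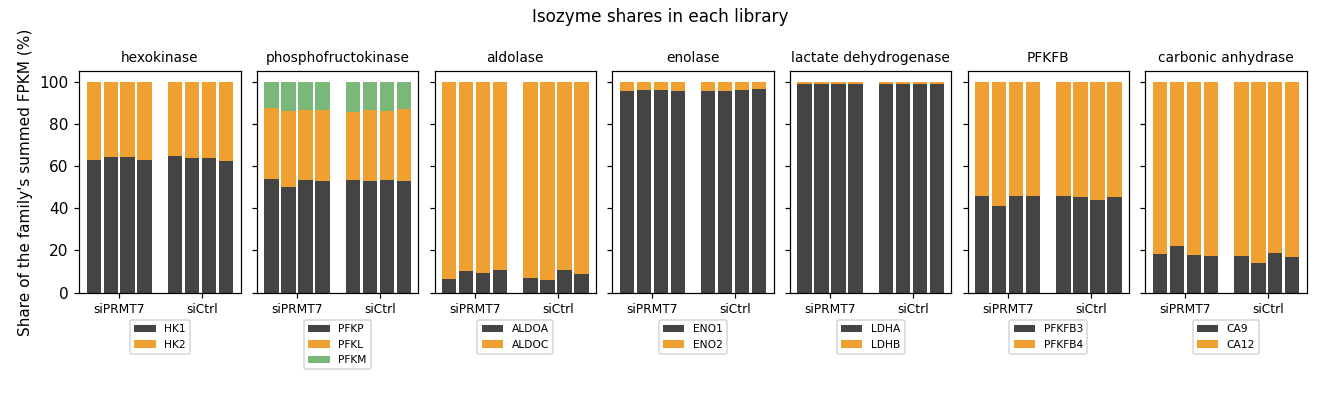
Share of each isozyme in the summed FPKM of its family, in percent, with 1 bar for each library, the 4 siPRMT7 libraries left of the 4 siCtrl libraries. LDHA takes at least 98.65% of the counted lactate dehydrogenase level in every library, and ALDOC takes most of the counted aldolase level. However, LDHB and ALDOA share 33.4% and 53.5% of their exonic bases with other genes.

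The lactate dehydrogenases were the most uneven pair. LDHA, the muscle-type subunit that favours lactate production, averaged 402 ± 28.1 FPKM in siPRMT7 and 408 ± 11.3 FPKM in siCtrl libraries (SD, n = 4 each). LDHB, the heart-type subunit, had 4.38, 5.58, 3.91 and 3.47 FPKM in siPRMT7 libraries, against 4.71, 4.07, 5.02 and 5.68 FPKM in siCtrl libraries. LDHA stood 88.1-fold above LDHB over all libraries. LDHB shares 997 of its 2983 exonic bases with AC010197.2 on the same strand, a gene at 0 FPKM in every library, and the sources used here do not give how fragments within 2 genes were counted. The size of the LDHB gap is therefore uncertain. ALDOA, the muscle-type aldolase, is uncertain for the same reason: it had 0.805, 1.29, 1.21 and 1.45 FPKM in siPRMT7 libraries, against 0.884, 0.687, 1.21 and 0.933 FPKM in siCtrl libraries, from 43 to 83 fragments. Of its 3916 exonic bases 1657 lie also in AC093512.2 on the same strand, which had a mean of 0.452 FPKM, and 520 in an antisense gene at 0. ANKRD37 and CA9 share 35.2% and 38.5% of their exonic bases with a gene on the opposite strand, and strand use in counting is not given either.

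The promoters of the lactate dehydrogenase pair, of the 3 enzymes with an unadjusted p under 0.05 and of ADM are shown to let a reader see their hypoxia response element letters. RefSeq windows (GRCh38.p14) of 300 bases, 250 before an annotated start and 50 after it, matched 30 of the 34 genes, with 53 windows in all, and VEGFA, NDRG1, BNIP3L and SLC2A3 were not matched. For a gene with several windows, the one with the lowest start coordinate is shown. Each sequence is read 5′ to 3′ on the strand of its gene, and capitals mark ACGTG or GCGTG on either strand.
LDHA, chr11:18394313-18394612, plus strand: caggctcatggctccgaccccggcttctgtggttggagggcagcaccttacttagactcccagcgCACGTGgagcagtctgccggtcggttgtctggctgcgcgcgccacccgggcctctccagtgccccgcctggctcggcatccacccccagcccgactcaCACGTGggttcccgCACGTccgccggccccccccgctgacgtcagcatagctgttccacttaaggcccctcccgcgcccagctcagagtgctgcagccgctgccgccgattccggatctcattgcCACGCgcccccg
LDHB, chr12:21657793-21658092, minus strand: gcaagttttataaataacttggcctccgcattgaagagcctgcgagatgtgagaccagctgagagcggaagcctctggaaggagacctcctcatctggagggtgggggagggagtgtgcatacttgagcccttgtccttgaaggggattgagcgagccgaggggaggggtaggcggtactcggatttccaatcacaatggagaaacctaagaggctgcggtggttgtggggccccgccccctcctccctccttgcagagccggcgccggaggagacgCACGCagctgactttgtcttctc
ADM, chr11:10304823-10305122, plus strand: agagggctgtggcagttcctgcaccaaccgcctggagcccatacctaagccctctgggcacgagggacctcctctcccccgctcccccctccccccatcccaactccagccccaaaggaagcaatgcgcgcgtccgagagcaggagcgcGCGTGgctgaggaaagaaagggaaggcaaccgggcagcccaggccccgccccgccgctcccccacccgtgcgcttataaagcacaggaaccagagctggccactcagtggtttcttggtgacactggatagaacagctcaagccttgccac
PFKL, chr21:44299803-44300102, plus strand: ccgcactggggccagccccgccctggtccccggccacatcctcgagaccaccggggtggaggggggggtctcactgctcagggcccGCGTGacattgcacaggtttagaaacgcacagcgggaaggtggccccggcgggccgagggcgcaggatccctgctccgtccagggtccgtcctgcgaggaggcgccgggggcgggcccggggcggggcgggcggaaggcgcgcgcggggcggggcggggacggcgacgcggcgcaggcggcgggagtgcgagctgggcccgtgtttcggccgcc
ALDOC, chr17:28576846-28577145, minus strand: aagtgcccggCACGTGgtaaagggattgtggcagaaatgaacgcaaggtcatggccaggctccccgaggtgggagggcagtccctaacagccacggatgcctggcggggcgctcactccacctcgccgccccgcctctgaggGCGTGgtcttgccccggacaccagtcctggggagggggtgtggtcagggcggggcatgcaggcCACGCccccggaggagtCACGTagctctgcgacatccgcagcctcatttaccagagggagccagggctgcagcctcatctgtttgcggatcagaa
ENO2, chr12:6914330-6914629, plus strand: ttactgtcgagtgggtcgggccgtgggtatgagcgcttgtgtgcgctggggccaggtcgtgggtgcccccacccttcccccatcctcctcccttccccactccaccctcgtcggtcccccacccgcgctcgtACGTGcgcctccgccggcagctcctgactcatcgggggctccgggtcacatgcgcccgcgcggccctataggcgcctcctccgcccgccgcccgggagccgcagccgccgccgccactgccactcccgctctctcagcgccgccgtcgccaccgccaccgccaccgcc
The printed LDHA window held ACGTG 5 times, with a palindromic match counted once on each strand, and GCGTG once. Another LDHA window, at 18396101 to 18396400, held GCGTG once and no ACGTG. The printed LDHB window held GCGTG once and ACGTG 0 times. ADM and PFKL each held GCGTG once, ENO2 held ACGTG once, and ALDOC held ACGTG 3 times and GCGTG 2 times. ACGTG on either strand stood in 22 of the 53 windows, or 41.5%, against 21.4% of all 35116 windows in the table. GCGTG stood in 39.6% of the windows of these genes, against 36.5% of all windows. By gene, ACGTG stood in some window of 18 of 30 genes, or 60%, against 24.9% of all genes. For GCGTG this was also 18 of 30, against 40.6% of all genes. By class ACGTG stood in 15 of 37 windows of glycolytic enzymes and in 5 of 8 windows of HIF targets outside glycolysis. The matches are letters in a window and show no binding, and genes with several annotated starts have several windows.

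HIF targets outside glycolysis act on blood vessels, pH, mitochondria, matrix and oxygen sensing, and 10 of the 11 were tested. Of these 9 had a log2 fold change above 0, with a median of 0.088, against 0.037 for the enzymes and -0.0015 over all genes tested. The HIF target median was 0.054 on the TPM scale and 0.030 after quantile normalization, where 8 and 7 of the 10 were above 0 and the medians of all genes tested were -0.035 and -0.0057. Without siPRMT7 replicate 2 that median was 0.051, with 8 of 10 above 0. The difference between the 2 classes was not tested. The class took 0.319%, 0.324%, 0.320% and 0.320% of all fragments in siPRMT7 libraries, against 0.302%, 0.299%, 0.301% and 0.301% in siCtrl libraries, and the groups did not overlap. NDRG1 alone supplied 50.1% of those fragments, and without it the share averaged 0.159 ± 0.00864% in siPRMT7 and 0.151 ± 0.00116% in siCtrl libraries (SD, n = 4 each), again without overlap.

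ADM, which encodes the vasodilator peptide adrenomedullin, had the largest log2 fold change of the 32 genes on the log2(FPKM + 1) scale, while in percent of the siCtrl mean the sparsely counted ALDOA differed by 27.9%. ADM (ENSG00000148926, chromosome 11, 10304680 to 10307397, plus strand, GRCh38) had 25.7, 33.6, 29.03 and 27.6 FPKM in siPRMT7 libraries, against 24.1, 22.7, 24.4 and 20.5 FPKM in siCtrl libraries. The lowest siPRMT7 value exceeded the highest siCtrl value, from 808 to 1371 fragments, and siPRMT7 replicate 2 was the highest. The means were 28.97 ± 3.36 FPKM in siPRMT7 and 22.9 ± 1.80 FPKM in siCtrl (SD, n = 4 each), 26.4% higher in siPRMT7, with a log2 fold change of 0.32 (SE 0.0851, interval 0.13 to 0.51). The unadjusted p was 0.00433 and the adjusted p 0.214 in limma, so the difference did not pass over all genes. Over the alternatives its adjusted p ran from 0.0961 to 0.461 and its log2 fold change from 0.25 to 0.38.

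NDRG1 (ENSG00000104419, chromosome 8, 133237171 to 133302022, minus strand, GRCh38) had 165, 155, 168 and 168 FPKM in siPRMT7 libraries, against 152, 148, 152 and 154 FPKM in siCtrl libraries. The groups did not overlap, but siPRMT7 replicate 2 lay close to siCtrl replicate 4, at 154.5 and 154.1 FPKM. Its log2 fold change was 0.11 (SE 0.0426, limma adjusted p = 0.318), 8.26% higher in siPRMT7. Over the alternatives its log2 fold change ran from 0.015 to 0.14 and its limma adjusted p from 0.0918 to 0.937. NDRG1 is the deepest-counted gene of its class, with 21961 to 25255 fragments in a library. VEGFA, the growth factor of blood vessels, had 10.05, 10.998, 10.5 and 11.1 FPKM in siPRMT7 libraries, against 10.02, 10.3, 9.81 and 9.53 FPKM in siCtrl libraries. In 3 of 4 siPRMT7 libraries VEGFA lay above every siCtrl library (log2 fold change 0.10, limma adjusted p = 0.399).

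**Figure D4:**
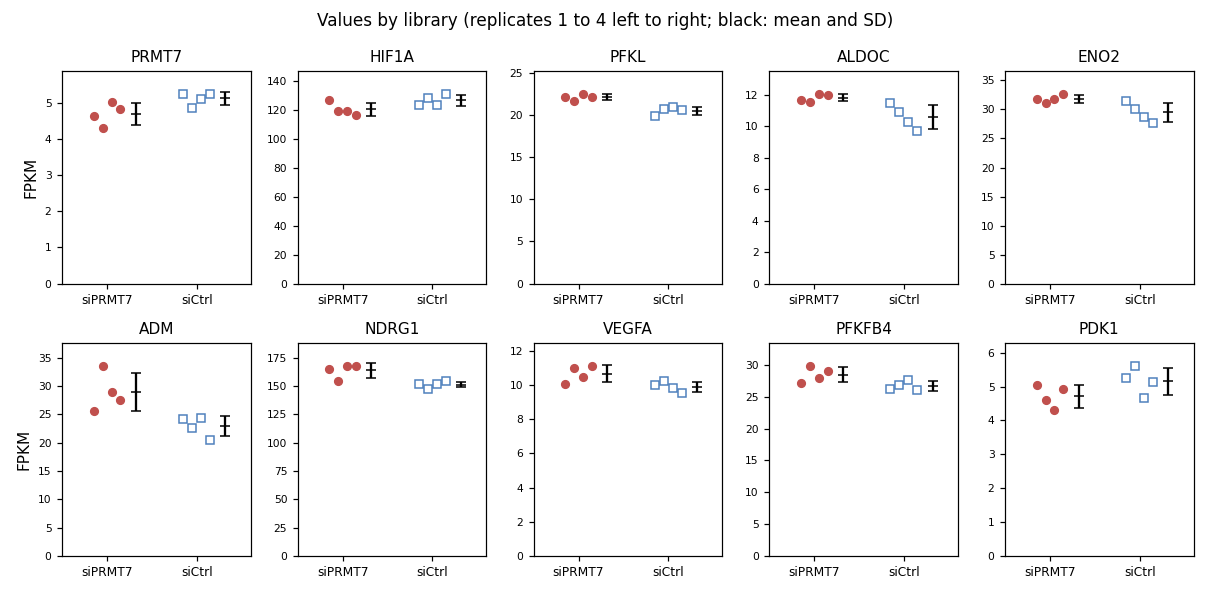
FPKM of PRMT7 and 9 of the 34 genes in each library on axes that start at 0, with siPRMT7 libraries as filled circles left of siCtrl libraries as open squares, replicates 1 to 4 from left to right, and the mean and SD in black. The groups stand apart without overlap for PFKL, ALDOC, ADM and NDRG1, and overlap for the others.

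In the mitophagy receptors and the other HIF targets the groups overlapped. BNIP3, a receptor that marks mitochondria for removal, averaged 80.4 ± 6.05 FPKM in siPRMT7 and 74.3 ± 2.24 FPKM in siCtrl libraries (SD, n = 4 each), with 89.1 FPKM in siPRMT7 replicate 2. Its relative BNIP3L averaged 25.5 ± 1.93 FPKM in siPRMT7 and 24.9 ± 0.476 FPKM in siCtrl libraries. P4HA1 averaged 182 ± 11.6 FPKM in siPRMT7 and 173 ± 4.38 FPKM in siCtrl libraries (SD, n = 4 each). The membrane carbonic anhydrases, which acidify the surroundings of hypoxic cells, gave no passing difference. CA9 averaged 2.81 ± 0.146 FPKM in siPRMT7 and 2.63 ± 0.378 FPKM in siCtrl libraries, and CA12, the more abundant of the pair, averaged 12.1 ± 0.959 FPKM in siPRMT7 and 13.0 ± 0.587 FPKM in siCtrl libraries. CA12 was the 1 gene of the class with a log2 fold change below 0, at -0.09 (interval -0.23 to 0.04). EGLN1, the main oxygen-sensing prolyl hydroxylase, averaged 21.1 ± 1.31 FPKM in siPRMT7 and 20.4 ± 0.309 FPKM in siCtrl libraries (SD, n = 4 each). ANKRD37, an ankyrin repeat protein, averaged 2.70 ± 0.400 FPKM in siPRMT7 and 2.39 ± 0.195 FPKM in siCtrl libraries.

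The library siPRMT7 replicate 2 stood at the high end for many of these genes. It was the highest of the 8 libraries for 13 of the 32 tested genes, or 40.6%, and the lowest for 7, or 21.9%. Over all genes tested it was the highest for 29.6% and the lowest for 27.1%. Among HIF targets outside glycolysis it was the highest for 7 of 10. The genes it was highest for had a median length of 4307 bases and those it was lowest for 6114 bases, and over all genes tested these were 3206 and 6910 bases. The median deviation of the HIF targets from the siCtrl mean was 0.030, 0.17, 0.052 and 0.050 on the log2(FPKM + 1) scale in siPRMT7 replicates 1 to 4, against -0.021 to 0.011 in siCtrl libraries. For the enzymes it was -0.053, 0.075, 0.075 and 0.033 in siPRMT7, against -0.020 to 0.032 in siCtrl, where the groups overlap. The part of this library in the differences of single genes was not tested beyond leaving it out, which left 0 of the 34 genes called.

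**Figure D5:**
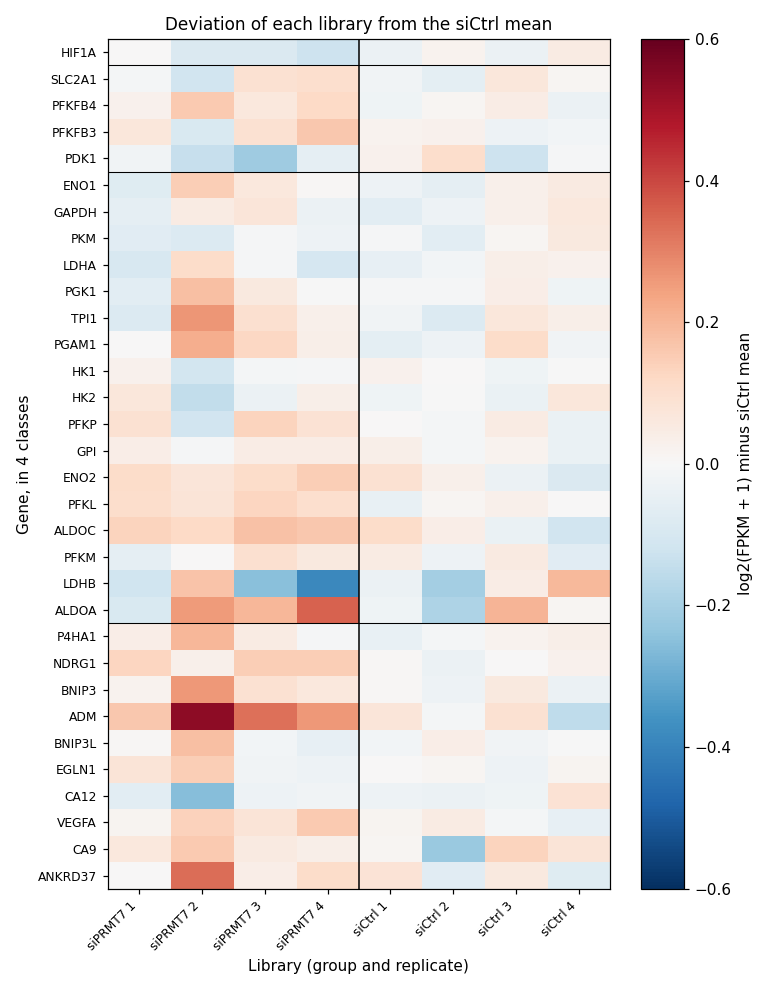
Deviation of each library from the siCtrl mean, as log2(FPKM + 1), for the 32 tested genes (rows, in 4 classes) in 4 siPRMT7 libraries left of 4 siCtrl libraries. Among siPRMT7 libraries replicate 2 is the reddest for ADM, ANKRD37, TPI1 and BNIP3 and replicate 4 departs most for LDHB and ALDOA. PFKL, ALDOC, ENO2 and NDRG1 are above 0 in all 4 siPRMT7 columns, as are others such as ADM, PFKFB4, VEGFA and BNIP3.

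Further genes of the same pathways, taken from fixed lists, showed 0 calls over all genes tested and 0 with voom. Of 32 other HIF targets 29 were tested and 22 had a log2 fold change above 0, with a median of 0.039. On the TPM scale the median was 0.0067, against -0.035 over all genes tested. At an unadjusted p under 0.05 there were 6 higher, or 20.7%, and 1 lower, against 7.67% and 5.49% of all genes tested. The groups did not overlap for 6 genes higher and 3 lower in siPRMT7, against 4.14% and 4.43% of all genes tested. The 3 lower ones were AK4, PLOD2 and TFRC, named after their values were seen. ANGPTL4, an inhibitor of lipoprotein lipase, had 18.6, 20.7, 19.1 and 18.4 FPKM in siPRMT7 libraries, against 16.9, 14.7, 16.0 and 15.7 FPKM in siCtrl libraries (log2 fold change 0.26, limma adjusted p = 0.155). The groups did not overlap. ANKZF1, a ribosome quality control factor, averaged 18.4 ± 0.826 FPKM in siPRMT7 and 15.7 ± 1.10 FPKM in siCtrl libraries, also without overlap (limma adjusted p = 0.207). HMOX1, heme oxygenase, averaged 39.5 ± 1.79 FPKM in siPRMT7 and 34.5 ± 1.65 FPKM in siCtrl libraries, again without overlap (limma adjusted p = 0.208).

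Of 15 genes of the HIF machinery 12 were tested, 6 above 0 and 6 below. CITED2, a HIF target whose protein competes with HIF for its coactivators, had the smallest p of that list. It had 90.8, 106, 99.9 and 93.0 FPKM in siPRMT7 libraries, against 79.5, 81.2, 83.6 and 77.0 FPKM in siCtrl libraries. The groups did not overlap, and the log2 fold change was 0.27 (SE 0.0564, limma adjusted p = 0.155). ELOB and RBX1, subunits of the ubiquitin ligase that destroys hydroxylated HIF, averaged 102 ± 13.1 and 18.9 ± 2.94 FPKM in siPRMT7, against 85.3 ± 4.63 and 15.9 ± 0.789 FPKM in siCtrl. Both were highest in siPRMT7 replicate 2, with 116 and 22.7 FPKM. EP300 and CREBBP, the coactivators, were in contrast lowest there, with 6.295 and 5.09 FPKM, against 11.5 or more and 7.84 or more FPKM in their other 3 siPRMT7 libraries and 12.3 or more and 8.24 or more FPKM in siCtrl.

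Of 15 genes of lactate and pyruvate handling 14 were tested and 8 had a log2 fold change above 0 (median 0.021). That median was -0.019 under TPM scaling, against -0.035 over all genes tested, and -0.024 when siPRMT7 replicate 2 was left out, against -0.0011 over all genes tested. BSG, the chaperone of the lactate transporters, averaged 178 ± 12.3 FPKM in siPRMT7 and 157 ± 8.79 FPKM in siCtrl libraries (log2 fold change 0.18, limma adjusted p = 0.291). SLC16A3, a HIF-induced lactate exporter, averaged 54.1 ± 3.33 FPKM in siPRMT7 and 49.5 ± 1.67 FPKM in siCtrl libraries (0.12, limma adjusted p = 0.362). DLAT, a subunit of pyruvate dehydrogenase, averaged 16.4 ± 0.651 FPKM in siPRMT7 and 17.5 ± 1.06 FPKM in siCtrl libraries (-0.09, limma adjusted p = 0.461). On a list of 19 other glycolysis genes and genes named like them, 7 were tested, with a median of 0.016, the value of PGAM5. That median was -0.023 on the TPM scale, against -0.035 over all genes tested, -0.0087 after quantile normalization and -0.0086 when siPRMT7 replicate 2 was left out. ENO3, BPGM and ADPGK had the smallest p of these, with log2 fold changes of 0.15, 0.11 and 0.07 (limma adjusted p = 0.431, 0.547 and 0.616).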

How the data were processed

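Per the submitters' processing notes, reads were handled with cutadapt 2.5, HISAT2 2.1.0 and featureCounts 1.6.3. The notes name a mouse genome build, but all 58735 genes of the table match GENCODE release 29 on GRCh38 in start, end and strand. Per the file headers, the authors deposited FPKM per gene and a gene length in bases. The sources used here do not give how FPKM was computed.

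FPKM times length gave whole fragments, within 0.01, for 100% of values in every library, so fragments were rebuilt. A floor of 3 fragments is 0.191 to 0.207 ppm of a library and covers counting error only. Genes with at least 1 FPKM in at least 4 of 8 libraries were tested with limma 3.58.1 (R 4.3.3) on log2(FPKM + 1) with a variance trend, two-sided, with Benjamini-Hochberg adjustment over all 13436 genes and a threshold of 0.05. This scale understates changes of low genes. The fit was tested on simulated data. PRMT7 was tested by exact permutation over 70 assignments.

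The 34 genes, the lists and the tests were chosen with earlier results of these data known. All 34 genes could be named. Values by library were given for PRMT7, HIF1A, the 3 genes with the smallest p among enzymes and among HIF targets outside glycolysis, the 2 of transport and control, and isozymes. Of each further list the 3 with the smallest p were named. Values by library for SLC2A1, GAPDH, CITED2 and ANGPTL4, and the mention of EP300 and CREBBP, were chosen after their values were seen. Alternatives were another pseudocount, filter or scaling, library weights, voom, a replicate block and leaving out each library.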

Additional observations from a re-analysis of the deposited data

Results flagged for a closer look

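In 88 groups of 4 libraries, 3 held a library far from the other 3 by the Dixon gap, where chance flags about 1 in 20 groups, or 4.4 here. GPI had 31.89 FPKM in siPRMT7 replicate 2, against 33.06 to 33.13 FPKM in the other siPRMT7 libraries. CA12 had 13.88 FPKM in siCtrl replicate 4, against 12.68 to 12.76 FPKM in the other siCtrl libraries. PFKFB3 took 40.81% of the summed PFKFB3 and PFKFB4 level in siPRMT7 replicate 2, against 45.75 to 45.96% in the other siPRMT7 libraries.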

How the results depend on the processing

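Over the 16 alternatives and the 32 tested genes, recomputed log2 fold changes were past the adjusted threshold 0 times and had the opposite sign 29 times, in 13 genes. The number of all genes called higher, 2 in the reported fit, was 1 with a pseudocount of 0.1 FPKM, 1 with at least 5 FPKM, 1 after quantile normalization, 46 with library weights, 13 with voom, 0 with the replicate block and 0 to 2 when 1 library was left out. The number called lower, 0 in the reported fit, was 2 without a filter, 12 with library weights, 1 with voom and 0 to 1 when 1 library was left out. The number of the 32 genes higher at an unadjusted p under 0.05, 5 in the reported fit, was 1 on the TPM scale, 2 after quantile normalization (with 3 lower), 2 with the replicate block, 7 with library weights and 1 to 8 when 1 library was left out. The lowest, 1, was without siPRMT7 replicate 3, and the highest, 8, without siPRMT7 replicate 1. Without siPRMT7 replicate 4, siCtrl replicate 1, siCtrl replicate 2, siCtrl replicate 3 or siCtrl replicate 4 it was 2, 3, 3, 2 and 3. The count without siPRMT7 replicate 2 lay within the same range and is not listed here. The share of all genes tested that were higher at that level was 7.67% in the reported fit. It moved too, from 5.35% to 12.3%, when 1 library was left out. Same-numbered libraries of both groups deviated together with correlations of -0.031, -0.013, 0.045 and 0.061, and not every library correlated best with its own number. These values show no pairing by number but cannot exclude one.

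The median log2 fold change of the 32 genes was 0.0070 on the TPM scale and 0.012 after quantile normalization, where the median of the enzymes was -0.015 and that of the HIF targets outside glycolysis 0.030. On the TPM scale the log2 fold change turned to -0.024 for SLC2A1, -0.0099 for GPI, -0.011 for PFKM, -0.031 for GAPDH, -0.0040 for ENO1 and -0.010 for BNIP3L, where the median of all genes tested was -0.035, against -0.0015 in the reported fit. After quantile normalization it turned to -0.023 for SLC2A1, -0.015 for GPI, -0.033 for TPI1, -0.028 for PGK1, -0.020 for PGAM1, -0.0047 for BNIP3L and -0.023 for P4HA1. With library weights it turned to 0.0052 for HK2 and -0.013 for BNIP3L. With 1 library left out it ran from -0.068 to 0.0019 for LDHA, -0.044 to 0.0016 for HK1, -0.051 to 0.022 for HK2, -0.012 to 0.031 for GAPDH, -0.0025 to 0.079 for PGK1, -0.020 to 0.056 for BNIP3L and -0.012 to 0.060 for SLC2A1. The cause of the changes other than on the TPM scale was not tested. Leaving out the 4 genes that share at least 30% of their exonic bases, an alternative chosen after seeing the data, left medians of 0.037 for the enzymes and 0.084 for the HIF targets, with 21 of 28 genes above 0. SLC2A3 and EGLN3, with at most 10 fragments in a library, entered the test only without a filter, where 0 of 34 genes were called.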

Other observations

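Some genes of these pathways that share many exonic bases with a gene on the same strand were listed at low levels. EGLN2, a relative of EGLN1, had a mean of 0.531 FPKM and shares 30.6% of its exonic bases with the read-through gene RAB4B-EGLN2, which was at 0 FPKM. TIGAR, a fructose bisphosphatase, had a mean of 0.202 FPKM and shares 42.6% with AC008012.1, also at 0 FPKM. Whether sharing set these levels was not tested.

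Pseudogenes named after a gene were set beside it. The 62 GAPDH pseudogenes together had 1.04 to 1.16% of the fragments of GAPDH, the 13 PGAM1 pseudogenes 1.01 to 1.84% of those of PGAM1, and the 39 BNIP3 pseudogenes 0.744 to 1.11% of those of BNIP3. For the barely expressed SLC2A3 the 3 pseudogenes had 40 to 800% of its fragments in the libraries where it was above 0. Fragments that fit a gene and its pseudogene equally cannot be assigned from this table.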
